A study of Mus musculus with 6 samples.

Results

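Genes of lymphocyte activation, tissue retention and egress were examined in mouse bone marrow after chronic stress. The set held 7 genes of 46333 in the files: Cd69, Cd83, S1pr1, Klf2, Ccr7, S1pr4 and Cd44. They were chosen from measured values of the comparison described here, Cd69 as the lead gene and the other 6 by name for their roles. Their differences between stressed and control marrow are therefore a description: errors and intervals give the spread, and where the genes are counted among those that limma called, nothing is supported by that count. The series compared marrow RNA of 3 mouse samples after 4 weeks of CUMS (chronic unpredictable mild stress, a procedure of changing mild stressors used to induce depression-like behaviour) with 3 negative control samples. Both groups were unsorted bone marrow cells, and the labels used here give no allele, strain, sex or age. Expression is in FPKM, a fragment number corrected for the length of the transcript and the size of the library, so that levels of different genes can be set side by side.

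Lymphocytes leave tissues along a gradient of the lipid sphingosine-1-phosphate (S1P), which is low in tissue and high in blood and lymph. The receptor S1PR1 reads this gradient, and the transcription factor KLF2 switches on its gene in lymphocytes. CD69, a lectin-like surface protein that appears within hours of activation, binds S1PR1, takes it off the surface and so holds the cell in the tissue. CCR7 guides lymphocytes and dendritic cells to lymph nodes, CD44 binds the matrix sugar hyaluronan, CD83 marks activated dendritic and B cells, and S1PR4 is the S1P receptor largely limited to blood cells.

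In CUMS marrow Cd69 was 2.74 times as high as in control marrow, and no other gene of the set differed nearly as much. S1pr4 was somewhat lower, at 0.784 of its control mean. S1pr1, Klf2, Ccr7, Cd44 and Cd83 had group ranges that overlapped. The file headers carry a code that no source explains: replicate 1 of CUMS and of control has code 1, and replicates 2 and 3 have code 2. Differences are also given within each code. Summed FPKM was 593129 to 653026 in CUMS libraries and 561563 to 658595 in control libraries, and counts per library were not available. Nothing in the labels says that samples of a group came from separate animals, so the spread behind each p-value may be technical. Haemoglobin genes made up 31.7% to 35.2% of the summed FPKM in CUMS libraries and 28.8% to 29.2% in control libraries.

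Promoter sequences of 3 of the 7 genes, Klf2, S1pr4 and Cd44, were in the RefSeq-derived table used (GRCm38.p6, the build that mm10 denotes). Those of Klf2 and S1pr4 are shown because KLF2 is the known activator of S1pr1 in lymphocytes and S1pr4 was the member receptor whose groups lay apart. Each is the 250 bases before the annotated start, on the strand of the gene, and capitals mark every match to the motifs searched: Klf2 at chr8:72318812-72319061 on the plus strand and S1pr4 at chr10:81500138-81500387 on the minus strand.
Klf2: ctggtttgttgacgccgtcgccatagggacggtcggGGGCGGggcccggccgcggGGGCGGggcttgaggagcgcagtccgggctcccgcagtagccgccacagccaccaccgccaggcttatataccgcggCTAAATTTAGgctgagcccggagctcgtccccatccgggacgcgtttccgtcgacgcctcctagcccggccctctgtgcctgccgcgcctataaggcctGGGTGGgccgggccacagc
S1pr4: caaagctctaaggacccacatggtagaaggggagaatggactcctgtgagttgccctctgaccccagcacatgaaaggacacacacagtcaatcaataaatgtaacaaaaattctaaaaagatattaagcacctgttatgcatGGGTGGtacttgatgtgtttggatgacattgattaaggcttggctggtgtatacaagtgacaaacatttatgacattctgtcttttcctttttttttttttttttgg

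The 2 windows differ in composition, with 71.2% G and C in Klf2 and 38.8% in S1pr4, against 56.4% in Cd44. Motifs were searched on both strands. The KLF letters CCACCC matched once in Klf2 and once in S1pr4, and 28.1% of all 32851 promoters in the table held them. The SP letters GGGCGG matched at 2 places in Klf2 (32.7% of promoters). The MEF2 letters CTANNNNTA matched on both strands of 1 palindromic stretch in Klf2, as 2 overlapping matches (19.0% of promoters); MEF2 factors are known to activate Klf2 downstream of the kinase ERK5. Letters without a match in Klf2, S1pr4 or Cd44 were those of AP-1 (TGANTCA, in 6.75% of promoters), CRE (TGACGTCA, 1.55%), NF-kB (GGGNNTTCC, 4.98%), FOXO (TGTTTAC, 3.17%) and ETS (CCGGAAGT, 2.88%), and Cd44 held none of the 8 motifs. A match or its lack describes only the letters of this window.

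Cd69 (RefSeq gene 12515, chromosome 6, 129267324 to 129275375, GRCm38) stood at 16.7, 18.7 and 17.7 FPKM in CUMS replicates 1, 2 and 3, against 6.79, 7.01 and 5.57 FPKM in control replicates 1, 2 and 3. Every CUMS library lay above every control library, with a wide gap between the groups. The means were 17.7 ± 1.00 FPKM in CUMS marrow and 6.45 ± 0.774 FPKM in control marrow (SD, n = 3 each). The difference on log2(FPKM + 1), CUMS minus control, was 1.33 (SE 0.11, 95% interval 1.07 to 1.59). It was 1.18 in the pair of header code 1 and 1.40 in the 4 libraries of code 2. In unsorted marrow, more cells that express a gene and more RNA per cell cannot be told apart.

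S1pr1 (chromosome 3, 115710433 to 115715055), the egress receptor that CD69 removes from the surface, had 8.17, 8.16 and 8.86 FPKM in CUMS replicates 1 to 3 and 8.02, 9.14 and 9.81 FPKM in control replicates 1 to 3. The groups overlapped, with the lowest of the 6 values in control replicate 1. The log2 difference was −0.09 (SE 0.11, 95% interval −0.33 to 0.16), 0.02 within header code 1 and −0.14 within code 2. The interval holds values of both signs and describes the spread of these libraries only.

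S1pr4 (chromosome 10, 81497745 to 81500137), which encodes the S1P receptor of blood cells, had 28.5, 21.3 and 23.2 FPKM in CUMS replicates 1 to 3, against 31.4, 30.1 and 31.5 FPKM in control replicates 1 to 3. The CUMS libraries lay below the control libraries, narrowly so in replicate 1. The log2 difference was −0.35 (SE 0.12, 95% interval −0.62 to −0.07), −0.14 within header code 1 and −0.45 within code 2.

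Klf2 (chromosome 8, 72319062 to 72321654), the transcription factor that activates S1pr1, had 92.9, 74.1 and 74.2 FPKM in CUMS replicates 1 to 3 and 71.9, 78.7 and 79.9 FPKM in control replicates 1 to 3. The highest CUMS value and the lowest control value were both of header code 1. Within that code the log2 difference was 0.37, and within code 2 it was −0.10, so the 2 codes differed in direction; this was not tested. Over all libraries it was 0.06 (SE 0.12, 95% interval −0.21 to 0.33).

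Ccr7 (chromosome 11, 99144199 to 99155077), the chemokine receptor for entry to lymph nodes, had 9.35, 8.72 and 8.31 FPKM in CUMS replicates 1 to 3 and 8.32, 7.82 and 7.21 FPKM in control replicates 1 to 3. The groups met at CUMS replicate 3 and control replicate 1, which had nearly the same value. The log2 difference was 0.16 (SE 0.10, 95% interval −0.07 to 0.39), 0.15 within header code 1 and 0.16 within code 2.

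Cd44 (chromosome 2, 102811141 to 102901669), the hyaluronan receptor, averaged 64.1 ± 2.04 FPKM in CUMS marrow and 62.3 ± 4.38 FPKM in control marrow (SD, n = 3 each). Its libraries ran from 62.7 to 66.4 FPKM in CUMS and from 58.0 to 66.8 FPKM in control, so that the CUMS range lay inside the control range. The log2 difference was 0.04 (SE 0.09, 95% interval −0.17 to 0.25), the narrowest interval of the 7 genes.

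Cd83 (chromosome 13, 43785112 to 43803133), a surface marker of activated dendritic and B cells, had 4.64, 4.66 and 5.03 FPKM in CUMS replicates 1 to 3 and 5.95, 4.75 and 4.76 FPKM in control replicates 1 to 3. Control replicate 1 stood above the other 5 libraries, which lay close together. The log2 difference was −0.09 (SE 0.12, 95% interval −0.35 to 0.18), −0.30 within header code 1 and 0.02 within code 2.

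**Figure D1:**
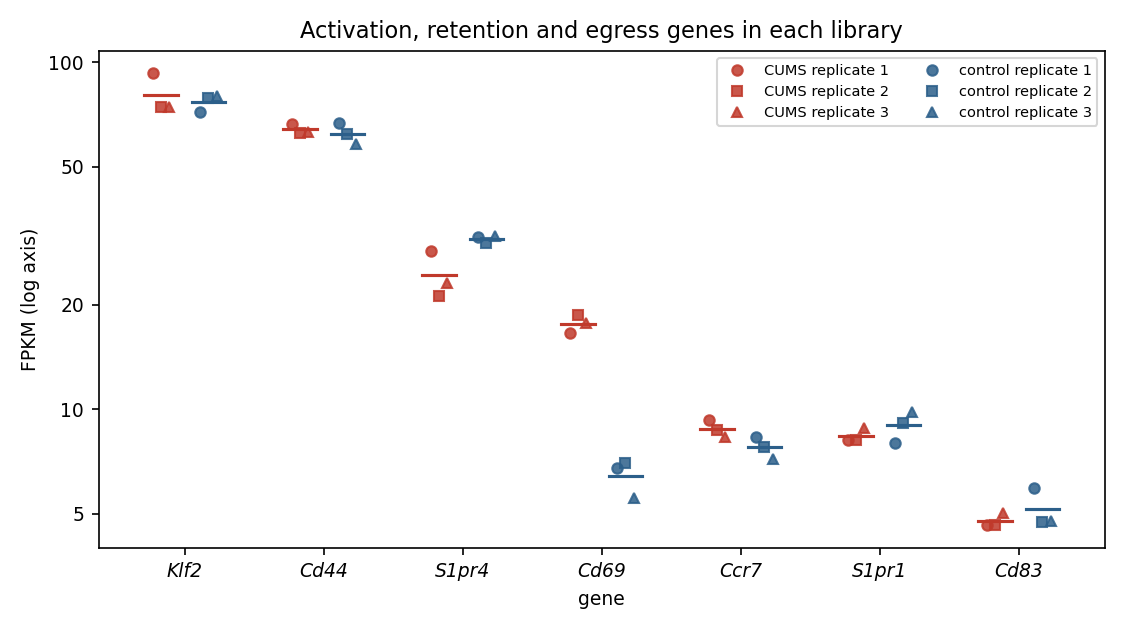
FPKM on a log axis for the 7 genes in each library, CUMS in red at the left of each gene and control in blue at its right, with the replicate by marker shape and the group mean as a line. Cd69 is separated widely (16.7 to 18.7 FPKM in CUMS, 5.57 to 7.01 FPKM in control), S1pr4 narrowly and the other 5 genes overlap.

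Of the 7 genes, 1 was called higher, Cd69, and none lower by limma on log2(FPKM + 1) at a Benjamini-Hochberg adjusted p under 0.05 over 12302 tested genes. In the same comparison 0.618% of all tested genes were called higher and 0.455% lower, 1.07% in all. At an unadjusted limma p under 0.05, 1 gene of the set was higher and 1, S1pr4, lower, beside 864 and 1034 of all 12302 tested genes. The groups did not overlap for 2 of the 7, Cd69 and S1pr4, against 22.1% of all tested genes. Nothing is read from these counts, nor from those under the next fits, since the same comparison chose the genes. With the replicate number as a block, again Cd69 alone was called (3.49% of all tested genes higher, 4.31% lower). With the header code as a term, S1pr4 was called lower as well (6.06% of all tested genes higher, 7.31% lower). The median log2 difference of the 7 genes was 0.04, and that of all tested genes was −0.0017.

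The order of the levels, in FPKM, differed between the groups for Cd69 and, within overlapping ranges, for S1pr1 and Ccr7. In all 6 libraries Klf2 ranked 1, Cd44 2, S1pr4 3 and Cd83 7. Cd69 ranked 4 in all 3 CUMS libraries and 6 in all 3 control libraries. S1pr1 ranked 6, 6 and 5 in CUMS replicates 1 to 3 and 5, 4 and 4 in control replicates 1 to 3. In CUMS marrow Cd69 lay above Ccr7 and S1pr1 with no overlap in range, while Ccr7 and S1pr1, at 8.79 and 8.39 FPKM, overlapped each other. In control marrow S1pr1 and Ccr7, at 8.99 and 7.78 FPKM, overlapped, as did Cd69 and Cd83, at 6.45 and 5.15 FPKM.

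Set against S1pr1 in the same library, Cd69 had 2.04, 2.29 and 2.00 times the FPKM of S1pr1 in CUMS replicates 1 to 3, against 0.846, 0.767 and 0.567 times in control replicates 1 to 3. Cd69 transcripts thus outnumbered those of S1pr1 per length in each CUMS library, and S1pr1 those of Cd69 in each control library. On log2(FPKM + 1) the ratio averaged 0.99 ± 0.10 in CUMS marrow and −0.42 ± 0.26 in control marrow (SD, n = 3 each), a difference of 1.42. Both genes were measured over all cells of the marrow, so the ratio is not one within single cells.

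The position of Cd69 was compared with its surroundings, a choice made after its value was known. Cd69 lies in a cluster of lectin-like receptor genes, and 18 other annotated genes of the files lay within 250000 bases of it, 8 of them high enough to be tested. None of the 8 was called, where 1.07% of all tested genes were. At an unadjusted limma p under 0.05, 1 was higher and 1 lower, beside 864 and 1034 of all 12302 tested genes. Values towards lower were held by 6 of the 8, beside 6186 of all tested genes. The median log2 difference of the 8 was −0.23. Clec2d, which encodes a ligand of an NK cell receptor, had 23.7, 32.8 and 22.8 FPKM in CUMS replicates 1 to 3 and 41.1, 30.0 and 30.7 FPKM in control replicates 1 to 3, and the groups overlapped. Clec12a, an inhibitory lectin receptor of myeloid cells, averaged 58.6 ± 4.99 FPKM in CUMS marrow and 82.0 ± 13.6 FPKM in control marrow (SD, n = 3 each; log2 difference −0.47, limma adjusted p = 0.152). Klrb1f, a lectin-like receptor, was the neighbour with the largest value towards higher, at 6.69 ± 1.13 FPKM in CUMS marrow and 4.80 ± 0.512 FPKM in control marrow (0.40, adjusted p = 0.218).

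**Figure D2:**
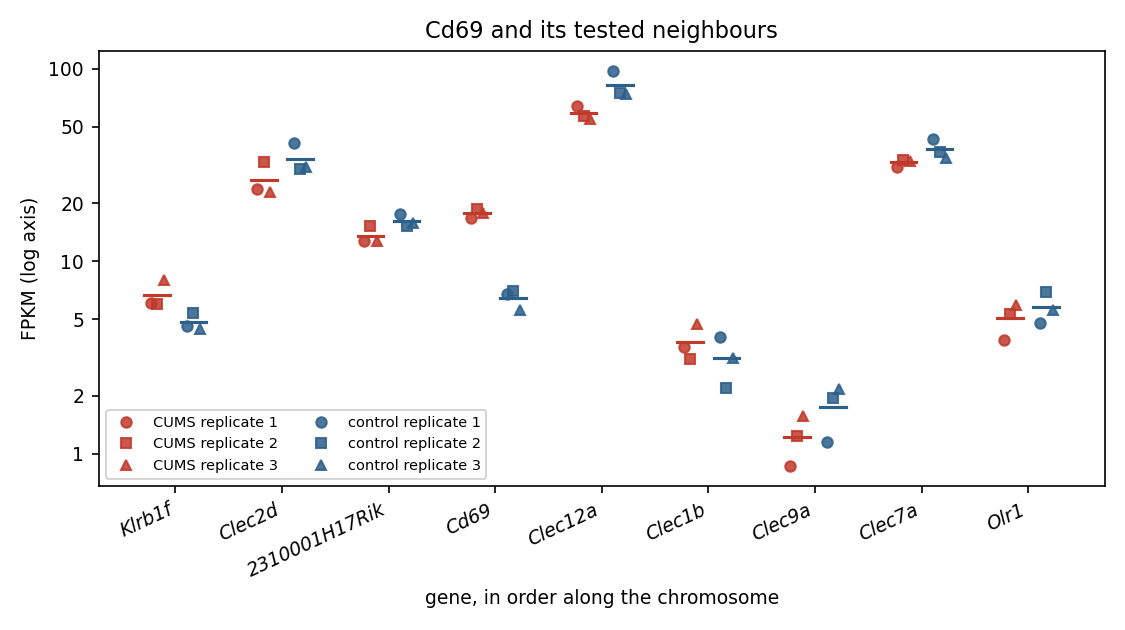
FPKM on a log axis for Cd69 and the 8 tested genes within 250000 bases of it, in their order along the chromosome, CUMS in red at the left and control in blue at the right of each gene, with group means as lines. Cd69 is the gene with the wide gap between groups; Clec12a had 54.6 to 64.2 FPKM in CUMS and 73.7 to 97.7 FPKM in control.

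Other genes of the same pathways were taken from 10 lists by role, 110 genes without the 7. Of these 87 were tested, and 1 rose, Rgs1, and none fell by limma's adjusted p. That is 1.15% of the tested pathway genes, beside 1.07% of all tested genes. At an unadjusted limma p under 0.05, 9 of the 87 were higher and 8 lower, beside 864 and 1034 of all 12302 tested genes. The median log2 difference of the 87 was −0.06. With the replicate block 5 rose (Rgs1, Cxcl12, Il7r, Klf6 and Nr4a1) and 4 fell (Itgb7, Lgals1, S1pr5 and Selplg), where 3.49% of all tested genes rose and 4.31% fell. With the header code as a term 10 rose and 7 fell, where 6.06% of all tested genes rose and 7.31% fell. Groups did not overlap for 25 of the 87 (28.7%, beside 22.1% of all tested genes).

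Rgs1, the 1 gene of these lists that passed, encodes a regulator that shuts off Gi-coupled receptors, among them chemokine and S1P receptors of lymphocytes. Rgs1 had 8.39, 9.17 and 8.70 FPKM in CUMS replicates 1 to 3, against 2.68, 1.99 and 2.23 FPKM in control replicates 1 to 3. The groups lay far apart, and the log2 difference was 1.57 (SE 0.12, limma adjusted p = 0.00282). In the libraries of header code 2 alone it was 1.68. Of the 13 tested genes of S1PR1 signalling and removal, the other 12 did not pass. Gnai2, the Gi subunit through which S1PR1 signals, was at 351 ± 41.4 FPKM in CUMS marrow and 388 ± 17.4 FPKM in control marrow (SD, n = 3 each), and Grk2, the kinase that desensitizes S1PR1, at 122 ± 2.17 and 146 ± 12.9 FPKM in the same order (limma adjusted p = 0.597 and 0.264). With the replicate block the limma adjusted p of Grk2 was 0.0891. With the header code as a term, where 6.06% of all tested genes rose and 7.31% fell, it was 0.0444.

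None of the 3 other S1P receptors passed the test. S1pr5, a receptor that directs egress of NK cells and patrolling monocytes, was at 0.644, 0.649 and 0.886 FPKM in CUMS replicates 1 to 3, against 2.19, 1.85 and 1.32 FPKM in control replicates 1 to 3. All CUMS libraries were lower, but at levels near 1 FPKM the limma adjusted p was 0.0898 (log2 difference −0.68), and 0.0399 with the replicate block. S1pr3, which is mainly a receptor of vessel and stromal cells, had a log2 difference of 0.20 (adjusted p = 0.474). S1pr2 was at 2.63 ± 0.331 FPKM in CUMS marrow and 3.21 ± 0.666 FPKM in control marrow (SD, n = 3 each; adjusted p = 0.569). Among 8 tested genes that make, carry or degrade S1P none passed either. Sphk1, a kinase that makes S1P, was at 16.1 ± 0.834 FPKM in CUMS marrow and 13.4 ± 0.395 FPKM in control marrow (adjusted p = 0.259). Mfsd2b, the S1P exporter of red cells and platelets, was at 34.4 ± 1.72 FPKM in CUMS marrow and 29.5 ± 2.21 FPKM in control marrow (adjusted p = 0.334). Sgpl1, the lyase that destroys S1P, had a log2 difference of −0.03 (adjusted p = 0.899).

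Of 15 tested genes around KLF2 and FOXO1 none passed, and the median log2 difference was 0.02. Foxo1, which drives Klf2 in T cells, had a log2 difference of −0.11 (limma adjusted p = 0.745). Itgb7, an integrin chain used in homing to the gut, was at 40.2, 34.6 and 34.9 FPKM in CUMS replicates 1 to 3, against 51.6, 48.4 and 51.5 FPKM in control replicates 1 to 3 (adjusted p = 0.0740, and 0.0174 with the replicate block). Klf6, an early-response relative of Klf2, was at 36.5 ± 5.16 FPKM in CUMS marrow and 26.1 ± 1.76 FPKM in control marrow (SD, n = 3 each; adjusted p = 0.131, and 0.0188 with the block). Il7r, the interleukin-7 receptor of lymphoid cells, a FOXO1 target and also a marker of pro-B cells, was at 13.2 ± 1.08 FPKM in CUMS marrow and 9.63 ± 1.21 FPKM in control marrow (adjusted p = 0.154, and 0.0247 with the block).

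No homing receptor or ligand passed with group as the only term. Cxcr4, the receptor that holds cells in marrow, was at 217, 194 and 180 FPKM in CUMS replicates 1 to 3. In control replicates 1 to 3 it was at 178, 163 and 160 FPKM, and the groups lay apart by a small step. Its log2 difference was 0.24 (limma adjusted p = 0.340, 0.0748 with the replicate block and 0.0372 with the header code as a term). Gpr183, an oxysterol receptor that places B cells, had a log2 difference of −0.24 (adjusted p = 0.346). Of 7 genes on the list of homing ligands, which also holds a scavenger receptor and enzymes, 1 was high enough to test. This was Cxcl12, the ligand of Cxcr4, at 54.8 ± 2.07 FPKM in CUMS marrow and 43.1 ± 3.79 FPKM in control marrow (SD, n = 3 each; adjusted p = 0.151, and 0.0320 with the replicate block). Ccl21a, a ligand of Ccr7, was listed at 0 in all libraries, and Ccl19, the other ligand, reached 0.420 FPKM at most.

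Among 15 tested genes of adhesion and CD44 binding none passed. Hmmr, another hyaluronan-binding protein that is abundant in dividing cells, was at 26.7 ± 0.516 FPKM in CUMS marrow and 21.8 ± 1.54 FPKM in control marrow (SD, n = 3 each). Its limma adjusted p was 0.196, with 0.0711 under the replicate block and 0.0348 with the header code as a term. Selplg, the selectin ligand of leukocytes, had a log2 difference of −0.30 (adjusted p = 0.311, and 0.0471 with the replicate block). Msn, which ties CD44 to the cytoskeleton, had one of 0.01 (adjusted p = 0.967) and Vcam1, an integrin ligand of marrow stroma, one of 0.01 (adjusted p = 0.962).

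Of 13 tested activation genes none passed. Nr4a1, a nuclear receptor induced by antigen receptor signalling and by many other stimuli, and also on the list of handling genes below, had 18.7, 29.5 and 23.7 FPKM in CUMS replicates 1 to 3, against 9.13, 14.6 and 13.9 FPKM in control replicates 1 to 3. Its groups did not overlap, and the log2 difference was 0.89 (limma adjusted p = 0.101, and 0.00353 with the replicate block). Myc, a growth regulator, had a log2 difference of 0.31 (adjusted p = 0.286, and 0.0372 with the header code as a term). The costimulatory genes Cd80, Cd86 and Cd40 had log2 differences of 0.05, −0.11 and −0.16 (adjusted p = 0.932, 0.793 and 0.545).

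None of 7 genes of proteins reported to bind CD69 or its lectin neighbours passed. Lgals1, galectin-1, was at 114, 101 and 95.6 FPKM in CUMS replicates 1 to 3, against 149, 128 and 133 FPKM in control replicates 1 to 3 (limma adjusted p = 0.136, and 0.0214 with the replicate block). All 3 CUMS libraries were lower. Of the 4 genes around CD83, Cd74, the invariant chain of MHC class II, had a log2 difference of −0.26. Its adjusted p was 0.286, with 0.0722 under the replicate block and 0.0311 with the header code as a term. Ly96, a Toll-like receptor 4 partner, had a log2 difference of −0.38 (adjusted p = 0.257).

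**Figure D3:**
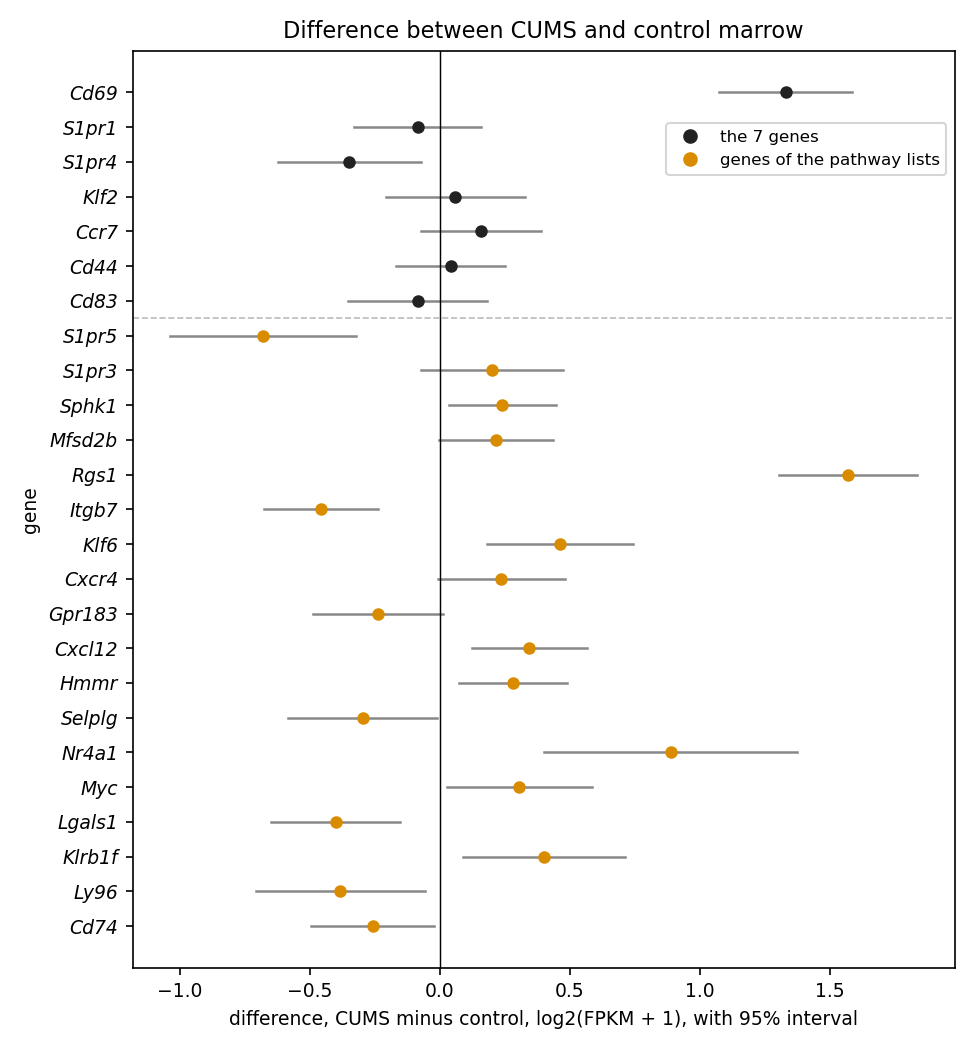
Log2 difference, CUMS minus control, on log2(FPKM + 1) with its 95% interval, for the 7 genes (black, above the dashed line) and for the genes named from the pathway lists (orange). Cd69 at 1.33 and Rgs1 at 1.57 stand to the right of all others.

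Markers of the cells that could carry these transcripts were compared by their summed FPKM, as the plot of Cd69 beside summed markers shows. For B cells the 8 markers summed to 466 to 509 FPKM in CUMS libraries and 522 to 597 FPKM in control libraries, with none of the 8 called. For pro-B and pre-B cells the sum of 6 markers was 126 to 145 FPKM in CUMS and 152 to 186 FPKM in control, with none called. For T cells it was 29.5 to 33.2 FPKM in CUMS and 24.9 to 28.5 FPKM in control, with none of 7 tested markers called and all 7 towards higher, and for NK cells 19.2 to 20.8 FPKM in CUMS and 19.9 to 25.1 FPKM in control, with none of 5 called. The ratios of group means, CUMS over control, were 0.868, 0.814, 1.15 and 0.910 for these sums, to which abundant genes contribute most. Among single T cell markers the ratio was 1.62 for Cd8b1 and 1.04 for Cd4. The part of lymphocyte numbers in the Cd69 difference was not tested.

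Among the other marker lists, those of eosinophils and of handling genes held markers called higher, the direction of Cd69. The part of these lists in the Cd69 difference was not tested. The 6 eosinophil markers summed to 1467 to 1505 FPKM in CUMS libraries and 640 to 870 FPKM in control libraries (ratio of means 1.96). By limma 4 of the 6 were called higher, where 0.618% of all tested genes were. Eosinophils can carry CD69 when activated. Most of that sum was Prg2, at 1013 FPKM in CUMS marrow and 500 FPKM in control marrow on average. Cd69 as a percentage of the eosinophil sum was 1.13% to 1.24% in CUMS and 0.742% to 1.09% in control. The handling list holds 10 immediate-early genes, Fos and Jun among them, that can respond to tissue handling and to other stimuli. The labels used here do not record handling. The 10 genes summed to 1256 to 1372 FPKM in CUMS and 811 to 882 FPKM in control (ratio of means 1.54). Of the 10, 5 were called higher, beside the same 0.618% of all tested genes. Cd69 as a percentage of that sum was 1.21% to 1.43% in CUMS and 0.649% to 0.837% in control. Of the 6 monocyte and macrophage markers 3 were called lower, beside 0.455% of all tested genes. They were Fcgr1, Cx3cr1 and Csf1r, at 0.333, 0.421 and 0.644 of their control means. The sum, 784 to 882 FPKM in CUMS and 790 to 1015 FPKM in control, was mostly Ly6c2, at 727 FPKM in CUMS marrow and 708 FPKM in control marrow on average. These 3 markers moved beside the lower values of S1pr4 and S1pr5, and their part in those was not tested. Of 6 neutrophil markers none was called, and the sum was 22047 to 22710 FPKM in CUMS and 20450 to 28605 FPKM in control. No tested marker of plasma cells (3 of 5 tested), dendritic cells (5 of 6), erythroid cells (6 of 6) or endothelial and stromal cells (4 of 6) was called. The ratios of their summed levels were 1.02, 0.985, 1.23 and 1.16. All 6 erythroid markers had values towards higher, and their part in the Cd69 difference was not tested.

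**Figure D4:**
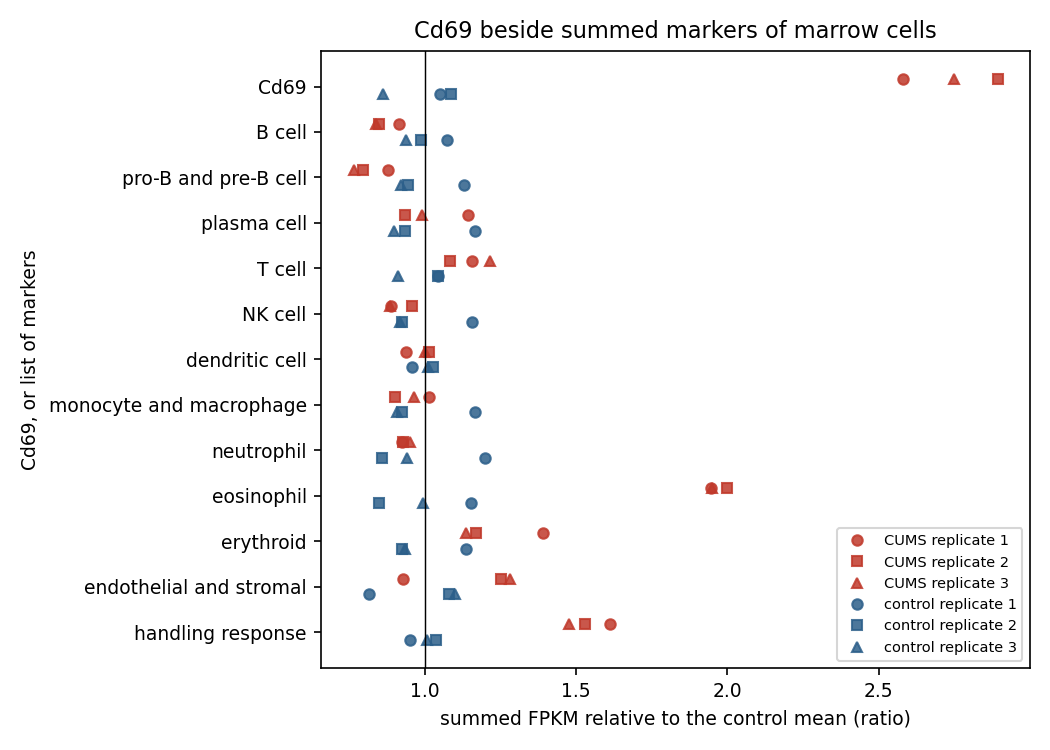
FPKM of Cd69 and summed FPKM of each marker list, per library, divided by the control mean of the same row; CUMS in red above control in blue, with the replicate by marker shape. Cd69 reached 2.74 times its control mean on average, the eosinophil list 1.96 times and the handling list 1.54 times.

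The 5 tested genes whose pattern over the 6 libraries was most like that of Cd69 were Ighv5-17, Gm2223, Ptp4a1, Api5 and Gspt1, by Pearson's r on log2(FPKM + 1). The r values were 0.99955, 0.99506, 0.99496, 0.99422 and 0.99370 over 6 libraries that share the 2 groups, and 412 tested genes had an r over 0.9. Of the 5, Ptp4a1, a phosphatase, had the largest difference, at 17.9 ± 0.972 FPKM in CUMS marrow and 9.64 ± 0.467 FPKM in control marrow (SD, n = 3 each). Among the set itself r with Cd69 was −0.85 for S1pr4, 0.78 for Ccr7, −0.52 for S1pr1, 0.38 for Cd44, −0.36 for Cd83 and 0.16 for Klf2.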

How the data were processed

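The deposited FPKM values of the authors were used, 1 file a library, 47561 entries each (46333 genes by RefSeq symbol). No label or header names the unit; it was read from the values, which are not whole numbers and which, multiplied by exon length in kb (GENCODE M21), add up to 1324166 to 1404870 in each library. Per the submitters' processing notes, bcl2fastq 2.19, cutadapt 1.16.5, HISAT2 2.1, featureCounts 1.6.4, DESeq2 2.11.40.6 and mm10 were named, and whether strand was used is not given in the sources used here. Counts, and so counting intervals, were not available. The 12302 genes that reached 1 FPKM in 3 or more of the 6 libraries were fitted with limma 3.58.1 (R 4.3.3), trended prior, group as the only term, on log2(FPKM + 1). The fit was tested on simulated data in which libraries varied independently, so that test does not cover an effect of the header code. Tables were made with pandas 2.3.3 and numpy 2.4.6 in Python 3.11.15, and plots with matplotlib 3.10.9. The 7 genes, the 10 pathway lists, the 12 marker lists and the tests were chosen with earlier results of these data known. Genes named from a list are those that passed (up to 4 a direction), or else the 2 with the smallest p; others were named after their values were seen, for their role or because the block called them. Deviations from group means correlated by 0.689, 0.452 and 0.363 for libraries with the same replicate number in their titles, over the limit of 0.1 set for pairing. Replicates 2 and 3 crossed gave 0.459 and 0.362, about as much, so for these the correlation did not single out the same number. Values with the replicate block stand where they change a call, and also for some genes called with the header code as a term. Exons of the 7 genes overlap no other gene in GENCODE M21. Alternatives were another pseudocount, filter, scaling, prior and term, and leaving out each library.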

Additional observations from a re-analysis of the deposited data

How the results depend on the processing

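Cd69 had log2 differences from 1.24 to 1.38 when 1 library was left out and 1.45 with a pseudocount of 0.1; it was chosen on this comparison, so its call under every alternative run is no independent support. Klf2 had a log2 difference of −0.095 in the 4 libraries of header code 2 alone, away from its value over all libraries; the cause was not tested. Without 1 library the log2 differences ran from −0.46 to −0.26 for S1pr4, −0.16 to −0.03 for S1pr1, −0.05 to 0.11 for Klf2, 0.11 to 0.20 for Ccr7, −0.01 to 0.09 for Cd44 and −0.13 to 0.00 for Cd83. The number of the 7 genes called lower was 1, S1pr4, with the header code as a term or in the libraries of code 2 alone, and 0 in the other alternatives. Pathway genes called higher numbered 5 with the replicate block, 10 with the header code as a term and 9 in code 2 alone. Those called lower numbered 4, 7 and 11 in these fits, and 2 (Itgb7 and Lgals1) with libraries scaled to the same total or quantile normalized. Of all 12302 tested genes, higher and lower together, 959 were called with the block, 1645 with the header code as a term and 2173 in code 2 alone. With libraries scaled to the same total 166 were called, and 199 after quantile normalization. Scaling to the same total moved the median of all tested genes to −0.04. The block changed no call of the 7 genes. Leaving out any 1 library left 1 pathway gene, Rgs1, called higher and none lower. The difference of the Cd69 to S1pr1 ratio was 1.27 to 1.52 without 1 library. Over all tested genes 132 were called with group as the only term, against 17 to 262 without 1 library. For CUMS these were 72, 19 and 17 with replicate 1, 2 or 3 removed, and for control 262, 33 and 17 likewise. With all genes above 0 in at least 1 library 43 were called. Depth is unknown, and with 3 libraries a group the 95% intervals of S1pr1, Klf2, Ccr7, Cd44 and Cd83 included 0.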

Other observations

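Of the 110 pathway genes 23 were too low to test, 3 of them listed at 0 in all libraries. Among the rest, 2 activation genes had CUMS libraries above all control libraries. They were singled out after their values were seen and were not tested. Groups lay apart, in 1 direction or the other, for 22.1% of all tested genes, so nothing is read from the 2. Ctla4, an inhibitory receptor of activated and regulatory T cells, had 0.645, 0.654 and 0.890 FPKM in CUMS replicates 1 to 3, against 0.316, 0.290 and 0.301 FPKM in control replicates 1 to 3. Egr2, a transcription factor induced by antigen receptor signalling, had 0.782, 1.59 and 0.918 FPKM in CUMS replicates 1 to 3, against 0.442, 0.372 and 0.389 FPKM in control replicates 1 to 3. Gpr15, a homing receptor of T cells to the gut, lay the other way, at 0.429 to 0.592 FPKM in CUMS and 0.652 to 0.731 FPKM in control. Cd28 and Icos, costimulatory receptors of T cells, had overlapping groups, at 0.653 to 0.727 FPKM in CUMS and 0.533 to 0.769 FPKM in control for Cd28, and 0.183 to 0.278 FPKM in CUMS and 0.158 to 0.238 FPKM in control for Icos.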
